A study of Homo sapiens with 10 samples.

Results

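C-type lectin receptors are surface proteins with a lectin-like domain, with which myeloid cells sense sugars, damaged cells and microbes. Many sit in a gene cluster on chromosome 12. Some carry an inhibitory motif in their own tail, some an activating motif, and others signal through small adaptor proteins to the kinase SYK and the scaffold CARD9. Their expression separates monocytes, granulocyte precursors and the classes of dendritic cells, and IRF8 is a transcription factor that these lineages depend on to different degrees. The 10 genes described here were chosen by symbol as a family, with earlier results of these data known: CLEC4A, CLEC4C, CLEC4D, CLEC4E, CLEC5A, CLEC7A, CLEC9A, CLEC10A, CLEC11A and CLEC12A. All 10 were among the 19590 genes of the deposited table.

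RNA-Seq was performed on MV4-11, an established human AML cell line of monocytic type that carries a FLT3 internal tandem duplication. The Control group was 4 libraries of cells infected with a control vector. The IRF8 KO group was 4 libraries from clones derived by limiting dilution after lentiviral delivery of Cas9 and a guide against IRF8, with puromycin selection. The study describes fewer such MV4-11 clones than these 4 libraries, made with different guides, so some libraries may share a clone. Neither the labels nor the methods tell which clone a library came from or whether replicates were separate cultures, so the p-values measure the spread between these libraries, and the effect of single-cell cloning cannot be told apart from that of the knockout. The values are read counts divided by a size factor for each library, called normalized counts below. Recovered from these values, the depth ranged from 39560072 to 65519047 reads on genes per library.

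The libraries had the expression of myeloid cells. CD33 was between 2101 and 3565 normalized counts and SPI1 between 7021 and 14377 over all 8 libraries, while the T cell gene CD3E reached at most 0.94. IRF8 itself had 36891, 15192, 43016 and 22535 normalized counts in Control replicates 1 to 4 and 6377, 2401, 12903 and 7820 in IRF8 KO replicates 1 to 4. The transcript was thus lower in every IRF8 KO library but present in all of them, with a log2 fold change of -2.11 (SE 0.51, adjusted p = 0.022 by limma). That call was lost without Control replicate 1, Control replicate 3 or IRF8 KO replicate 1, where the limma adjusted p lay between 0.053 and 0.059. These are RNA values, and the study reported IRF8 protein to be absent from its knockout clones by Western blot. The genes of chromosome 20 were lower as a block in the IRF8 KO libraries (median log2 fold change -0.92), but no lectin of the family lies there. On chromosomes 7, 12, 17 and 19, which hold the family, the medians were 0.01, 0.01, 0.01 and -0.08.

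The family split in the IRF8 KO cells. CLEC12A, CLEC5A and CLEC7A rose, and CLEC10A fell to 1.62% of its Control mean. CLEC4A and CLEC11A did not pass the test. CLEC9A appeared at a few counts in every IRF8 KO library and in no Control library, and CLEC4C, CLEC4D and CLEC4E were at or near 0 in both groups. The filter of a mean of at least 10 normalized counts left 6 of the 10 genes in the test. Of these, 3 were higher and 1 lower at a limma adjusted p below 0.05, where 8.65% of all 13110 tested genes were higher, 9.56% lower and 18.2% changed in either direction. The call rule of the study, p below 0.01 and at least 2-fold, was applied to the limma values, where the study used DESeq2. The same numbers of lectins were called, against 4.78% of all tested genes higher, 6.12% lower and 10.9% in either direction. CLEC7A passed the filter only through its IRF8 KO values. The groups did not overlap for the same 4 genes of the 6, against 25.3% of all tested genes (12.3% apart upward and 13% downward).

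**Figure D1:**
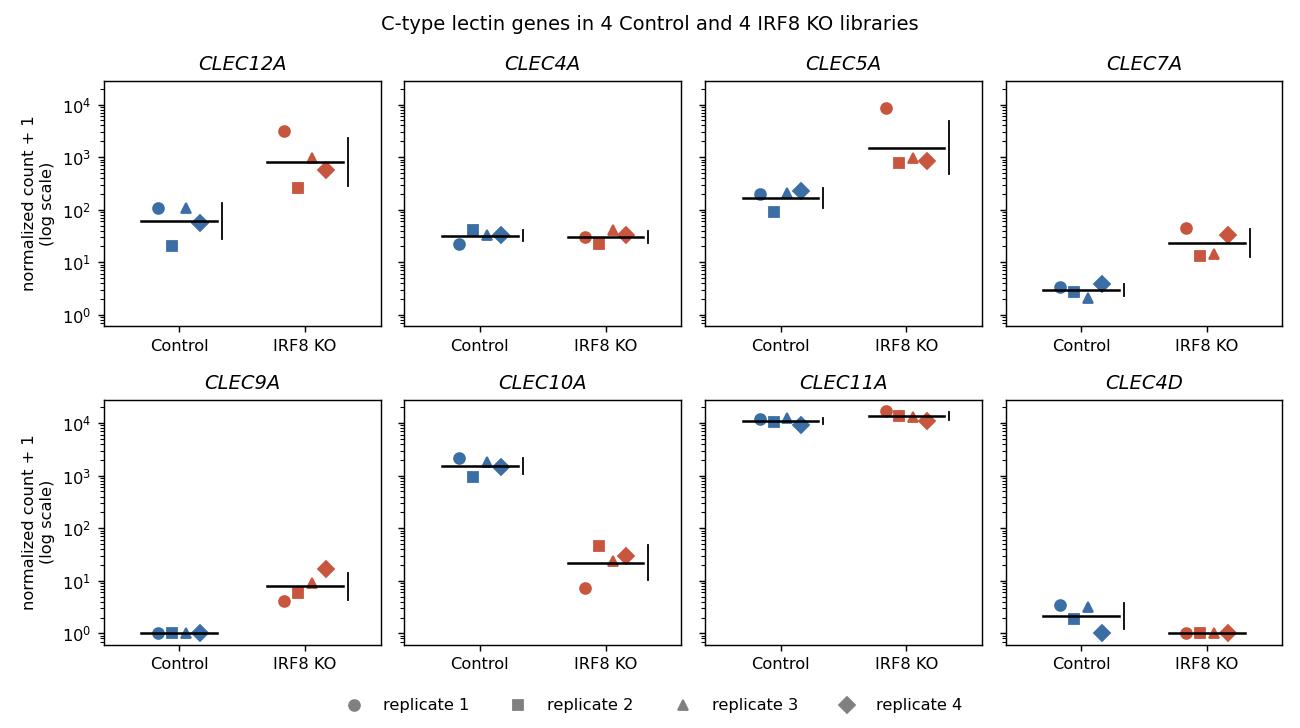
Normalized count plus 1 on a log axis for 8 of the 10 genes, with 1 marker per library, Control in blue and IRF8 KO in red. Black lines are means of the log2 values and vertical bars are ±1 SD of the log2 values (n = 4). CLEC12A, CLEC5A, CLEC7A and CLEC9A lie higher in every IRF8 KO library than in any Control library, and CLEC10A lies lower.

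CLEC10A, also known as MGL or CD301, is an endocytic receptor for terminal galactose and N-acetylgalactosamine and is used as a marker of the CD1C+ dendritic cells. The gene lies at chr17:7074537-7080251 (GRCh38.p14). Control replicates 1 to 4 had 2123, 940.2, 1837 and 1442 normalized counts, and IRF8 KO replicates 1 to 4 had 6.39, 44.9, 23.02 and 28.5. The lowest Control library was thus far above the highest IRF8 KO library, and the groups did not overlap. The means were 1586 ± 513 (SD, n = 4) and 25.7 ± 15.9 (SD, n = 4). The log2 fold change was -6.10 (SE 0.53, adjusted p = 2.0e-04 by limma), and with each library left out it stayed between -6.45 and -5.57. The exact two-sided permutation test gave p = 0.029, the smallest value that 4 libraries against 4 allow. Of its 6 nearest tested neighbours on chromosome 17, ASGR2, a subunit of the hepatic asialoglycoprotein receptor and itself a galactose-binding lectin, also fell. ASGR2 had 460 ± 19.2 normalized counts in the Control and 142 ± 51.2 in the IRF8 KO libraries (n = 4 each, SD). On the log2 scale the change was -1.77 (SE 0.28, adjusted p = 0.0033 by limma). ASGR1, the partner subunit, had a log2 fold change of -1.0 that did not pass the test (limma adjusted p = 0.079). On the other side, RNASEK, an endoribonuclease, rose by a log2 fold change of 0.97 (limma adjusted p = 0.0055).

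Among the activating receptors, CLEC5A (MDL-1) signals through the adaptor TYROBP, also called DAP12, and lies at chr7:141927357-141946974 on the minus strand. It had 196, 88.0, 204 and 226 normalized counts in Control replicates 1 to 4. In IRF8 KO replicates 1 to 4 it had 8681, 757, 948 and 855. All 4 IRF8 KO values were above all Control values, and IRF8 KO replicate 1 stood far above the other three. The log2 fold change was 3.17 (SE 0.75, adjusted p = 0.020 by limma). Without IRF8 KO replicate 1 it was 2.33 (SE 0.34, adjusted p = 0.0039 by limma). The ratio of the group means of 15.7 rests largely on that library. DESeq2 gave no p-value for CLEC5A, with a log2 fold change of 3.98. The exact two-sided permutation test gave p = 0.029.

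The 250 bases before the annotated start are shown for CLEC5A and CLEC12A, the risen genes for which the RefSeq promoter table has an entry. CLEC4C, CLEC4E and CLEC11A also have one. The sequences were searched on both strands for a composite ETS and IRF element, GGAA followed after any 2 bases by GAAA, and for a tandem IRF element, GAAA followed after any 2 bases by GAAA. Capitals mark a match, and both sequences are printed in the direction of transcription.
CLEC5A (chr7:141946975-141947224, minus strand, GRCh38.p14): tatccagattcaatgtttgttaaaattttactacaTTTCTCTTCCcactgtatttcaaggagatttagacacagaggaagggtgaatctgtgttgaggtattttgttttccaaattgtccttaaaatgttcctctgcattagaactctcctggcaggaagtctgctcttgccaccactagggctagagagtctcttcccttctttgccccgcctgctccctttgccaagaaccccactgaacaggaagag
CLEC12A (chr12:9971159-9971408, plus strand, GRCh38.p14): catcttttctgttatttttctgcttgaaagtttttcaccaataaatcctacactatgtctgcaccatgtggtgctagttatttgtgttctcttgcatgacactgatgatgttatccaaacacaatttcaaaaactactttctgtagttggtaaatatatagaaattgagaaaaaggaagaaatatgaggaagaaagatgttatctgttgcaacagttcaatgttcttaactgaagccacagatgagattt
The start used for CLEC12A lies inside its annotated gene span. The CLEC5A window held 1 match to the composite element, on the opposite strand, from position -215 to -206 before the start, and it does not overlap a match to the tandem element. Over the promoters of 14886 genes of the table, 2.22% held the composite and 2.75% the tandem element in the same window. The other 4 lectin windows held neither. A match is a description of the letters and not a binding site.

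The 2 nearest tested genes upstream of the CLEC5A start rose as well. MGAM, which encodes the starch-digesting enzyme maltase-glucoamylase, had a log2 fold change of 2.58 (SE 0.44, adjusted p = 0.0048 by limma), and MGAM2 one of 2.31 (SE 0.57, adjusted p = 0.023 by limma). On the other side of CLEC5A, the bitter taste receptor genes TAS2R4 and TAS2R5 (0.70 and 0.72) and SSBP1 (0.11) did not pass the test.

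CLEC7A, or Dectin-1, is the receptor for fungal beta-glucan and carries a single activating tyrosine motif in its tail. It lies at chr12:10116777-10130304. It was barely detected in the Control libraries, with 2.41, 1.73, 1.07 and 2.82 normalized counts, which are 9 reads in all. The IRF8 KO libraries had 44.8, 12.4, 13.5 and 31.5 normalized counts, or 97 reads. Every IRF8 KO library was above every Control library. Scaled to the reads on genes, the ratio was 12.2, with an exact 95% interval from 6.17 to 27.5 that covers counting error only. The log2 fold change on the log2(normalized count + 1) scale was 2.99 (SE 0.50, adjusted p = 0.0041 by limma), and with a pseudocount of 5 it was 1.99. Without IRF8 KO replicate 1 the mean of CLEC7A was below the filter.

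CLEC9A, or DNGR-1, binds actin filaments of dead cells, has the same kind of activating motif and marks the cross-presenting class 1 dendritic cells. It lies at chr12:10030682-10066031. It had 0 reads in all 4 Control libraries and 3.20, 4.78, 8.13 and 15.7 normalized counts in IRF8 KO replicates 1 to 4, or 30 reads in all. Scaled to the reads on genes, the lower limit of the exact 95% interval of the ratio for CLEC9A was 8.65, counting error only, and with the Control group set to a floor of 3 reads over its 4 libraries the ratio was 11.3. The groups did not overlap (exact two-sided permutation test, p = 0.029). With a mean of 3.98 it was below the filter. Without the filter, limma gave it an adjusted p of 0.0021. XCR1, which defines these dendritic cells, was at 0 in all 8 libraries, and of the 5 tested genes of that list none was higher and 1, C1orf54, was lower.

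The receptors that pair with the adaptor FCER1G were at or near 0 in both groups. CLEC4E (Mincle), the receptor for mycobacterial cord factor and for a nuclear protein of dead cells, was at 0 in all 8 libraries. CLEC4D, its partner, had 6 reads over the 4 Control libraries and none over the IRF8 KO libraries (exact two-sided permutation test, p = 0.14). CLEC4C (BDCA-2), the plasmacytoid dendritic cell antigen, had 1 read in Control replicate 1 and none elsewhere. In each of these genes a library held at most 3 reads, so a difference between the groups was not detectable at this depth.

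Of the 2 receptors with an inhibitory tail motif, CLEC12A rose and CLEC4A did not pass the test. CLEC12A (CLL-1, CD371) is an antigen of myeloid cells and of AML blasts that is followed as a target for antibodies. It lies at chr12:9951268-10006150. It had 106, 19.8, 108 and 55.6 normalized counts in Control replicates 1 to 4 and 3179, 260.0, 957 and 559 in IRF8 KO replicates 1 to 4. No IRF8 KO value reached down to the Control values. Replicate 2 was the lowest library of each group. For CLEC12A the log2 fold change was 3.74 (SE 0.79, adjusted p = 0.012 by limma), between 3.09 and 4.29 with each library left out. CLEC4A (DCIR), at chr12:8102907-8138607, had 21.7, 39.7, 32.2 and 32.01 normalized counts in the Control and 28.8, 21.0, 39.3 and 31.5 in the IRF8 KO libraries, so that the groups overlapped. Its log2 fold change was -0.06, with a 95% interval from -0.76 to 0.64 (limma adjusted p = 0.93).

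CLEC11A, a secreted growth factor of haematopoietic and bone progenitors rather than a receptor, lies at chr19:50723364-50725708. It had 11986, 10394, 12248 and 9244 normalized counts in Control replicates 1 to 4 and 17214, 13685, 13236 and 11094 in IRF8 KO replicates 1 to 4. IRF8 KO replicate 4 lay within the Control range, and the other three above it. The log2 fold change was 0.32 (95% interval from -0.04 to 0.68, limma adjusted p = 0.20), and each IRF8 KO library was above its same-numbered Control library. A block on the replicate number gave a limma adjusted p of 0.058.

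**Figure D2:**
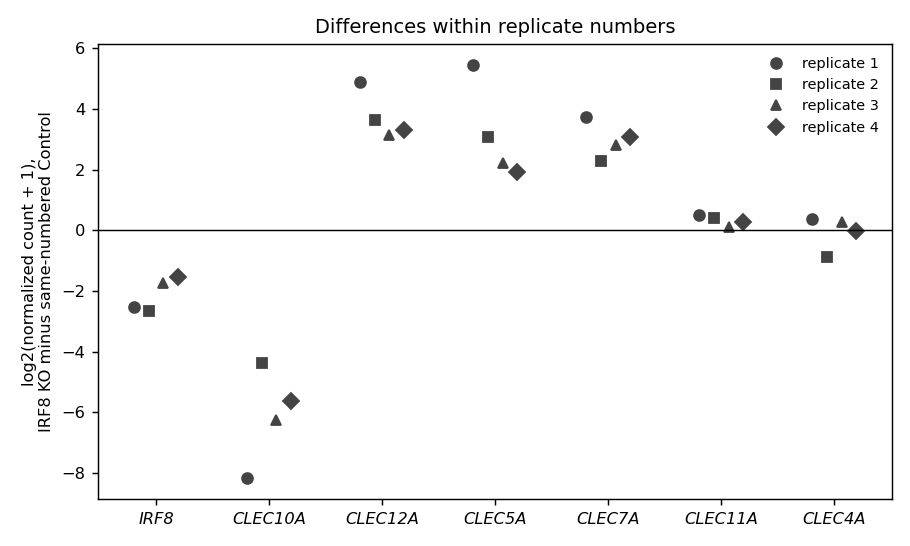
Difference in log2(normalized count + 1) between each IRF8 KO library and the Control library of the same replicate number, for IRF8 and the 6 tested lectins, with 1 marker per replicate number. CLEC12A, CLEC5A and CLEC7A are above 0 and CLEC10A and IRF8 below 0 for all 4 replicate numbers. Replicate 1 has the largest difference for all 4 of these lectins.

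Libraries with the same replicate number deviated together, as did replicates 1 with 3 and 2 with 4 across the groups. The differences within each number were also compared, though the same number need not make a pair. For CLEC12A they were 4.89, 3.65, 3.13 and 3.31 on the log2 scale in replicates 1 to 4, and with the number as a blocking term the SE came to 0.31 in place of 0.79 (limma adjusted p = 3.1e-04). For CLEC5A they were 5.46, 3.09, 2.21 and 1.91. For CLEC10A they were -8.17, -4.36, -6.26 and -5.61. Replicate 1 had the largest difference for each of these genes, while the difference of IRF8 itself was largest in replicate 2 (-2.66, against -2.53 in replicate 1).

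The lectin genes on chromosome 12 did not move as a whole. CLEC12A, CLEC9A and CLEC7A lie in a run of 6 genes over 179 kb, which also holds CLEC1B, CLEC12B and CLEC1A. This run was singled out after its values were seen and was given no test. All 6 were higher in every IRF8 KO library than in any Control library. The share over all tested genes was 12.3%, but CLEC9A and CLEC1A were below the filter. CLEC12A, CLEC1B, CLEC12B and CLEC7A were tested and called higher. Of these, CLEC1B, CLEC12B and CLEC7A passed the filter only through their IRF8 KO values, so nothing is read from the count. CLEC12B, an inhibitory receptor close in sequence to CLEC12A, had 2.41, 4.31, 7.52 and 10.4 normalized counts in the Control and 620, 107, 339 and 408 in the IRF8 KO libraries (log2 fold change 5.59, SE 0.58, adjusted p = 4.1e-04 by limma). CLEC1B, or CLEC-2, the platelet receptor for podoplanin, had 7 reads in the Control and 270 in the IRF8 KO libraries (log2 fold change 4.33, SE 0.83, adjusted p = 0.0077 by limma). CLEC1A had 4 and 61 reads and was below the filter. The annotated span of CLEC12A overlaps that of CLEC1B and of an antisense RNA, and no source used here gives the strand setting of the counting, so reads of the overlap may be split between them.

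Just outside the run, TMEM52B, a membrane protein gene, was the next tested gene past CLEC7A and rose from 41.7 ± 9.48 to 716 ± 336 normalized counts (n = 4 each, SD), with a log2 fold change of 3.92 (limma adjusted p = 4.6e-04). Its span overlaps that of OLR1, another lectin gene, which was below the filter. CLEC2B, a ligand of the receptor KLRF1, starts at -98.9 kb from the CLEC12A start and had a log2 fold change of 2.51 (limma adjusted p = 0.036), a call that was lost without any 1 of 5 libraries, Control replicates 1 and 3 and IRF8 KO replicates 1, 3 and 4 (limma adjusted p up to 0.098). CLEC2D, which starts at -281.6 kb, did not pass the test (log2 fold change 0.27, limma adjusted p = 0.38). At the far end, around CLEC4A, the complement receptor gene C3AR1 was higher (log2 fold change 2.40, limma adjusted p = 0.021). Over the 39 tested neighbours within 3 genes of any of the 10 lectins, 8 were higher and 1 was lower. Over all tested genes, 8.65% were higher and 9.56% lower. CLEC1B and CLEC12B are among the 8 and passed the filter only through their IRF8 KO values, so nothing is read from this count.

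**Figure D3:**
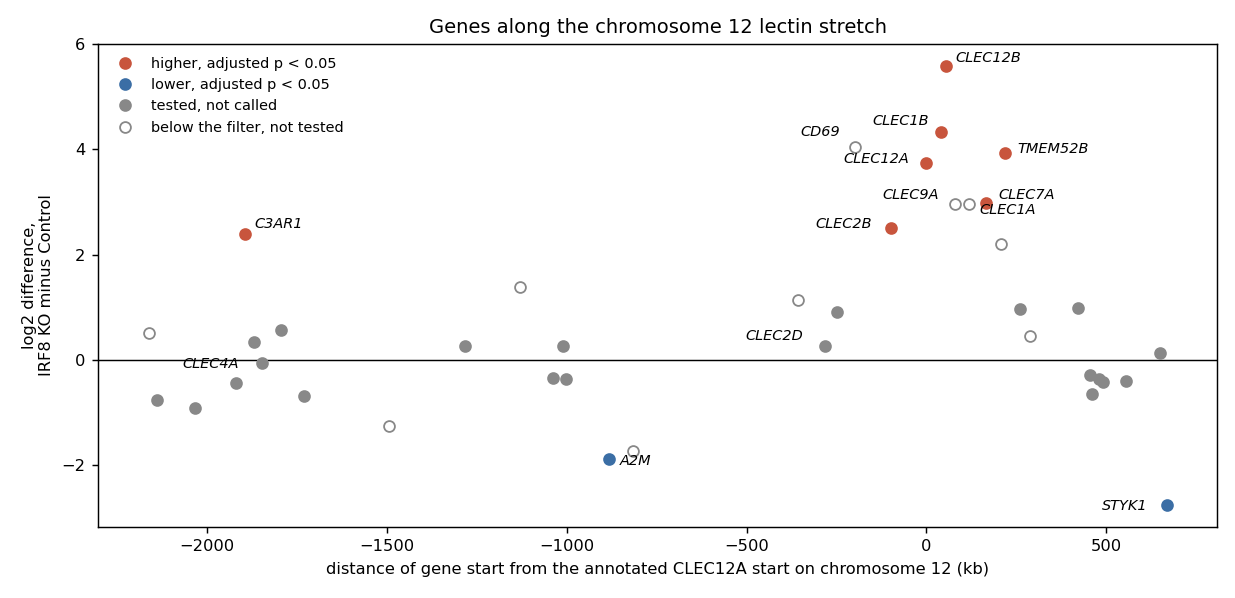
Log2 difference between the IRF8 KO and Control means of log2(normalized count + 1) against the distance of the gene start from the annotated CLEC12A start, for genes of the chromosome 12 stretch with a mean of at least 1 normalized count. Filled points were tested, and open points were below the filter. The genes from CLEC12A to TMEM52B lie mostly between 2 and 6, and CLEC4A near 0.

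Of 63 further C-type lectin genes found in the table, 32 were tested. At a limma adjusted p below 0.05, 6 were higher and 6 were lower, or 18.75% each way beside 8.65% and 9.56% of all tested genes. The median log2 fold change of the 32 was -0.03. CLEC12B and CLEC1B passed the filter only through their IRF8 KO values, so nothing is read from the share of higher genes. Besides CLEC12B, CLEC1B and CLEC2B, the higher genes were PRG2, the eosinophil granule major basic protein (log2 fold change 2.57, limma adjusted p = 0.0010), CD248, or endosialin (3.47, limma adjusted p = 0.020), and CLEC18B (1.04, limma adjusted p = 0.044). CLEC18B is a near-identical copy of CLEC18A and CLEC18C, between which reads can be split, and its call was lost with the replicate number as a block (limma adjusted p = 0.061) and in 9 other settings. CD248 lost its call without Control replicate 1 or IRF8 KO replicate 3 or 4 (limma adjusted p up to 0.061).

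The lower genes were led by CD209, or DC-SIGN, a mannose-binding receptor of dendritic cells and macrophages. It had 676, 541, 529 and 657 normalized counts in the Control and 43.7, 51.6, 32.5 and 63.0 in the IRF8 KO libraries, and a log2 fold change of -3.66 (SE 0.24, adjusted p = 4.1e-05 by limma). The low-affinity IgE receptor FCER2 (log2 fold change -4.46), the B cell co-receptor CD72 (-2.76), the matrix proteoglycan VCAN (-3.27), ASGR2 (-1.77) and CLEC4G (-1.64) were the others, with limma adjusted p-values between 6.2e-04 and 0.020. Some reads of CD209 may be split with its related gene CLEC4M, which was below the filter. CLEC4G, which lies beside CD209 in the same receptor family, lost its call without Control replicate 4 (limma adjusted p = 0.058).

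**Figure D4:**
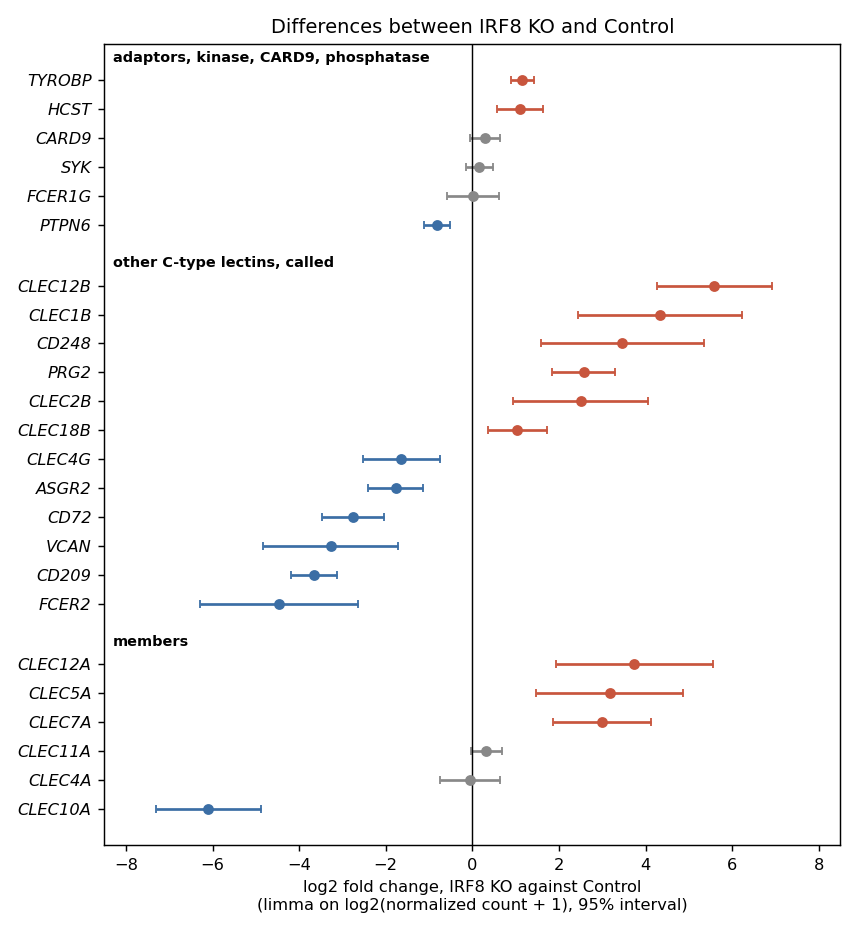
Log2 fold change of IRF8 KO against Control with its 95% interval from limma, for the 6 tested lectins, the 12 other C-type lectin genes that were called, and 6 genes of the signalling list. Red marks higher and blue lower genes at an adjusted p below 0.05, and grey genes were not called. CLEC10A has the lowest value in the plot and CLEC12B the highest.

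The adaptors of the receptors were measured with them. TYROBP, the adaptor of CLEC5A, had 1831, 2035, 1888 and 1934 normalized counts in Control replicates 1 to 4 and 4985, 4046, 4394 and 3779 in IRF8 KO replicates 1 to 4. The groups did not overlap, and both were narrow. By limma this was a log2 fold change of 1.16 (SE 0.12, adjusted p = 3.6e-04 by limma). HCST (DAP10), a second adaptor that can join the same receptor, rose by a log2 fold change of 1.1 (SE 0.24, adjusted p = 0.012 by limma). FCER1G, the adaptor of the CLEC4 receptors that were near 0, had 1591 ± 575 and 1548 ± 314 normalized counts (n = 4 each, SD), with a 95% interval of the log2 fold change from -0.58 to 0.61.

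Downstream, SYK and CARD9 did not pass the test. Their log2 fold changes were 0.16 (95% interval from -0.15 to 0.47) and 0.29 (95% interval from -0.04 to 0.63). PTPN6, the phosphatase SHP-1 that inhibitory lectins recruit, fell, from a mean of 25122 ± 1064 to one of 14422 ± 2506 normalized counts (n = 4 each, SD). The log2 fold change was -0.82 (SE 0.14, adjusted p = 0.0041 by limma). INPP5D, the inositol phosphatase SHIP1, had a log2 fold change of -0.87 (limma adjusted p = 0.0049). PTPN11, or SHP-2, the third phosphatase of the list, did not pass the test (log2 fold change -0.24, limma adjusted p = 0.32).

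Of the 52 genes of the signalling list, 47 were tested, 4 were higher and 8 lower, with a median log2 fold change of -0.07. These are 8.51% and 17.0%, beside 8.65% higher and 9.56% lower over all tested genes. The higher genes other than the adaptors were the caspases CASP1 (log2 fold change 1.24, limma adjusted p = 2.0e-04) and CASP8 (0.53, limma adjusted p = 0.015). Among the lower genes, TNF, a cytokine that these pathways induce, fell, from a mean of 6798 ± 2099 to one of 896 ± 299 normalized counts (n = 4 each, SD). The log2 fold change was -2.93 (limma adjusted p = 3.2e-04). The transcription factors IRF5 (-2.36) and NFATC2 (-1.54) and the inflammasome sensor NLRP3 (-1.28) were lower as well, with limma adjusted p-values from 0.0037 to 0.0048. SRC (-2.14) and NFATC2 lie on chromosome 20, whose genes were lower as a block.

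Markers of other myeloid classes were read beside the lectins, where 8.65% of all tested genes were higher and 9.56% lower. Of the 8 tested granulocyte genes, 5 were higher and none lower, all 5 of them primary granule genes. CEACAM8 and FCGR3B, markers of mature granulocytes, were at most 3.20 normalized counts in any library. The summed level of the 10 listed genes was between 32443 and 34728 normalized counts in the Control and between 138089 and 326458 in the IRF8 KO libraries. MPO, the granule peroxidase, rose by a log2 fold change of 4.08 and ELANE, the neutrophil elastase, by 3.64. Of the 6 tested markers of CD1C+ dendritic cells, 5 were lower and 1, PKIB, was higher. CD1E had a log2 fold change of -5.94, CD1C one of -4.16 and SIRPA, which lies on chromosome 20, one of -1.71. FCER1A, a defining marker of these cells, had at most 14 normalized counts in a Control library and was at 0 in every IRF8 KO library. The summed level of that list was between 13572 and 15214 in the Control and between 5109 and 7335 in the IRF8 KO libraries.

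Of 11 tested plasmacytoid dendritic cell genes, 5 were lower and none higher, with IL3RA at a log2 fold change of -2.01, and the summed level of the 12 listed genes was between 33166 and 36345 normalized counts in the Control and between 19357 and 24231 in the IRF8 KO libraries. Among the lower genes, LAMP5 (log2 fold change -0.50) lies on chromosome 20, whose genes were lower as a block. Of the 7 tested monocyte genes none was called by limma, and CD14 was at most 25.6 normalized counts in any library. The median log2 fold change of the 7 was 1.35. The 10 listed genes summed to between 8978 and 21463 normalized counts in the Control and between 20152 and 259060 in the IRF8 KO libraries. LYZ, the lysozyme gene, ranged from 1734 to 14757 in the Control and from 13767 to 248604 in the IRF8 KO libraries, with IRF8 KO replicate 1 the highest, as for CLEC5A and CLEC12A. The part of these markers in the lectin results was not tested, and in bulk RNA fewer cells of a type and less RNA per cell cannot be told apart.

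By the root mean square difference of log2 values centred on each gene's mean over the 8 libraries, the gene most like CLEC10A was PAK5, a kinase gene on chromosome 20 (difference 0.33), followed by C12orf75 (0.45) and CD1A (0.51), the antigen-presenting molecule of Langerhans cells. CD1A had a log2 fold change of -5.17. Most like CLEC12A were ALDH1A1, an aldehyde dehydrogenase of haematopoietic progenitors (0.43), SLC1A3, a glutamate transporter (0.51), and CORO2A (0.58). Most like CLEC5A were LRRK2 (0.41), CXCL6 (0.51) and SLC24A4 (0.65). ALDH1A1, LRRK2 and CXCL6 had Control means of 2.48, 4.78 and 0.50 normalized counts and passed the filter only through their IRF8 KO values. The difference between the groups is part of this measure, so likeness here is not separate from it. Near CLEC7A were MGAM (0.37), the neighbour of CLEC5A, and RYK (0.44). The 3 genes nearest to CLEC11A were TMEM8A, FAM118A and TMEM9B (0.084 to 0.085), and those nearest to CLEC4A were TBCE, TMEM216 and CYP27B1 (0.18 to 0.19).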

How the data were processed

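Reads were aligned by the authors with RNA-Star 2.7.2b. featureCounts 2.0.1 then counted them over the genes of GENCODE v32, and DESeq2 normalized the counts. The deposited signal is the read count of a gene divided by 1 size factor per library. The columns named WT were taken as the Control libraries of the same number, and 0 columns were left without a sample. In each library 100% of the values were whole multiples of 1 read within 0.01 reads. The authors' table of the comparison holds fold changes and p-values and was not used, and the 2 ChIP-Seq samples were not analysed here.

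limma 3.58.1 (R 4.3.3; trended, robust) was fitted to log2(normalized count + 1) of genes whose mean normalized count reached 10 (13110 genes), with Benjamini-Hochberg adjustment over all of them. A fold change on this scale understates that of low genes. On simulated counts, 100% of 4-fold and 81.8% of 2-fold changed genes were recovered, and 5.64% of the calls were false. The simulation changed no genes with few reads, gave every gene the same dispersion and held no replicate structure. These rates therefore need not hold for the lectins. Alternatives were the pseudocount, the filter, upper-quartile scaling, edgeR 4.0.16, DESeq2 1.42.0 and the replicate number as a block. The call rule of the study on the limma values and leaving out each library were others. Same-numbered libraries' deviations from their group means correlated at 0.37, 0.48, 0.45 and 0.50 across genes. Replicates 1 and 3 also deviated alike across the groups (0.41 and 0.47), as did 2 and 4. The deviations thus group replicates 1 with 3 and 2 with 4, and do not show that the same number makes a pair. The labels do not tell whether the numbers pair the samples.

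Positions and promoters are from RefSeq (GRCh38.p14), which matched 12992 tested genes. The lectins and gene lists were chosen with earlier results of these data known. Named genes are the 10 lectins, IRF8, up to 6 called genes per list and direction, 5 signalling genes whatever their value, called neighbours and the 3 most similar genes. Others were named after their values were seen. Not every gene chosen by these rules is reported here.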

Additional observations from a re-analysis of the deposited data

Results flagged for a closer look

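By Dixon's test, 3 of 113 groups of 4 libraries held a library apart from the rest, where chance gives about 1 in 20. CLEC5A in IRF8 KO replicate 1 had 8681 normalized counts, while the other IRF8 KO libraries lay between 757 and 948. CLEC4C in Control replicate 1 had 0.80 normalized counts, a single read, and the other Control libraries were at 0. SMPD3, of the plasmacytoid dendritic cell list, had 75.7 normalized counts in IRF8 KO replicate 1, and the other IRF8 KO libraries lay between 190 and 203.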

How the results depend on the processing

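The direction and the call of CLEC10A, CLEC12A and CLEC7A were the same in every alternative in which they were tested. So were those of CLEC5A except with DESeq2, which gave the same direction but no p-value, and so no call. CLEC7A was not tested without IRF8 KO replicate 1 or with a filter of 100, where its mean was too low. The count of higher lectins was between 2 and 4 over all alternatives (4 without the filter, with CLEC9A) and that of lower lectins always 1. CLEC4A, which was not called, changed sign to 0.06 without Control replicate 2 and 0.10 without IRF8 KO replicate 2, and with each library left out its log2 fold change ranged from -0.22 to 0.10. The call rule of the study, p below 0.01 and at least 2-fold, was also put to the limma values. It gave 5 lower signalling genes in place of 8. Higher genes among the other C-type lectins fell from 6 to 3 with a filter of 100, by which fewer genes were tested, and ranged from 3 to 7 with each library left out. The replicate block gave adjusted p-values of 0.0054 for CLEC5A, 0.0027 for CLEC7A and 4.5e-04 for CLEC10A, and changed no call of a lectin of the family. Depth limits CLEC9A, which rests on 30 reads in all, and CLEC4C, CLEC4D and CLEC4E, for which no difference could be detected.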

Other observations

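The NKG2 receptor genes at the end of the chromosome 12 stretch, chosen after their values were seen, differed within the IRF8 KO group. KLRC1, the inhibitory NKG2A, had 2.13 and 10.5 normalized counts in IRF8 KO replicates 1 and 2 and 150 and 118 in replicates 3 and 4, with 31.1 to 45.9 in the Control libraries. KLRC2 had 3.20 and 22.9 against 191 and 202, and KLRC3 5.33 and 5.74 against 106 and 143. No call was made for them by limma (adjusted p from 0.74 to 0.87). CD69, an early activation antigen in the same stretch and below the filter, had at most 0.94 normalized counts in a Control library and between 10.8 and 27.5 in the IRF8 KO libraries.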
